A study of Mus musculus with 12 samples.

Results

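The complement and coagulation genes described here were 46 genes of the blood's complement, clotting and fibrinolytic systems, taken by name out of the 55401 genes counted by RNA-seq in 12 mouse livers. They comprised 23 complement genes, 19 clotting genes and 4 fibrinolysis genes, and all 46 were found in the count table. The livers came from female mice aged 15 weeks on a C57BL/6J background. The 6 iTgMir483 livers, given the genotype over-expressor in the labels, carried a single-copy Tet-off Mir483 transgene at the ubiquitously active Rosa26 locus, from which the selection cassette had been removed with a CMV-Cre line. Doxycycline was given in the drinking water of the mothers during pregnancy and then stopped, which holds a Tet-off transgene down during pregnancy and lets it be expressed afterwards; expression before birth was not measured here. The 6 Control livers were labelled only as control; they came from littermates, and their exact alleles were not given in the sources used here. Because the transgene was active in many tissues, a change in liver RNA could begin in the liver or elsewhere, and these cannot be told apart in this design.

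Mir483 lies within an intron of Igf2 and gives rise to the microRNAs miR-483-3p and miR-483-5p. It was counted 0 times in every Control liver and between 318 and 761 times in the iTgMir483 livers, so each library matched its label. Each library held between 12244123 and 30431286 counts. Of all genes, 13205 passed the filter on low counts and were tested with edgeR's quasi-likelihood F-test. A gene was called when its Benjamini-Hochberg adjusted p over all tested genes was under 0.05 and its fold change was over 1.5. Of 8 hepatocyte markers listed for the check of the tissue, 7 were matched and all of these were present, with a summed level of 117025 to 165235 CPM (counts scaled to a common library size) in Control livers and 56058 to 128608 CPM in iTgMir483 livers. Among them Cps1, a urea cycle enzyme, was called lower. In whole liver RNA, fewer cells of a type and less RNA per cell cannot be told apart.

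Complement is a chain of plasma proteins that tags and lyses foreign cells. Antibody-bound C1 or mannose-binding lectins start it by cleaving C4 and C2, all routes meet at C3, and C5 to C9 form the pore that ends it, while factor I, C4b-binding protein, Cd55, Cd59 and vitronectin hold it back. Clotting is a parallel chain of proteases in which thrombin turns fibrinogen into fibrin, and plasmin, released from plasminogen by its activators, dissolves that fibrin again. Hepatocytes make most of these proteins, and many of them, fibrinogen and C3 among them, belong to the acute-phase group that liver cells produce in larger amounts during inflammation.

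Since the transgene encodes a microRNA, the mature sequences were read from RefSeq (GRCm38.p6), where they lie on chromosome 7, minus strand. They are shown because their seeds, bases 2 to 8 in capitals, set which target sites were searched.
miR-483-3p at chr7:142654932-142654952: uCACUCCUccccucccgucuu
miR-483-5p at chr7:142654968-142654989: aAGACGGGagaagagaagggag
The letters that pair with these seeds, AGGAGTG for miR-483-3p and CCCGTCT for miR-483-5p, were searched on the sense strand of the longest annotated 3′ UTR of each gene (GENCODE M21, GRCm38). A match for miR-483-3p was held by 5 of the 46 members (10.9%: Masp1, Cd59a, Clu, Tfpi and Plat), against 12.6% of the 12098 tested genes with an annotated 3′ UTR. A match for miR-483-5p was held by 2 members (4.35%: F7 and Klkb1), against 3.26% of the tested genes. The median 3′ UTR was 433 bases long in the members and 1164 bases in the tested genes. The sites below are those of the kallikrein, factor VII, clusterin and tissue plasminogen activator genes, with the matching letters in capitals and given on the strand of the gene. Klkb1 is shown because it was the member with an adjusted p under 0.05 and a lower level in iTgMir483 livers; the others are shown beside it as members with a site whose level did not pass the test.
Klkb1, match at chr8:45267200-45267206, minus strand: caaagtagCCCGTCTtccactcg
F7, match at chr8:13035609-13035615, plus strand: gccttgctCCCGTCTccccgtag
Clu, match at chr14:65981344-65981350, plus strand: ctatatgtAGGAGTGtctgggag
Plat, match at chr8:22782485-22782491, plus strand: gatctttcAGGAGTGaaagtttg
None of the 3 called members, C2, Fgb and Plau, held a match to either seed in its longest annotated 3′ UTR. A match is a description of letters and not a measured target site.

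Across the 46 genes, most levels were close between the groups, while Fgb, C2 and Plau were higher in iTgMir483 livers and no member was called lower. Fgb, which encodes the fibrinogen beta chain, was 2.02-fold higher, C2, the complement protease cleaved by C1s, was 1.76-fold higher, and Plau, the urokinase-type plasminogen activator, was 1.64-fold higher. The 45 members that passed the filter on low counts had a median log2 fold change of 0.10, against 0.01 over all tested genes, and 35 of them (77.8%) lay within 0.5 of 0 on the log2 scale, against 79.4% of all tested genes. Of the 45, 3 were called higher, while 8.41% of all tested genes were called higher, and 0 were called lower, while 2.73% of all tested genes were. At an adjusted p under 0.05 with no threshold on the fold, 5 members were higher (11.3% of all tested genes were) and 1 was lower (7.33% of all were). In 4 members, C2, C8g, Cfi and Fgb, every iTgMir483 liver lay above every Control liver, and this was so for 5.09% of all tested genes; the reverse held for 0 members and for 2.83% of all tested genes. The 4 that did not overlap are a slightly larger share than in the whole table. Under the other rules so far, the shares of the members were not above those of all tested genes. Of the rules that follow, the shares higher with no adjustment and with DESeq2 were slightly above those of all tested genes. These small excesses rest on few genes, were not tested, and are not read as a trait of the members. By class, the median log2 fold change was 0.05 over 22 tested complement genes, -0.01 over 19 clotting genes and 0.65 over 4 fibrinolysis genes. With no adjustment, 10 members were higher and 3 lower (F11, F13b and Klkb1) at p under 0.05 in the same edgeR fit, where 18.6% of all tested genes were higher and 14.8% lower. DESeq2 called 5 members higher and 1 lower, against 8.94% and 3.4% of all genes it tested, and limma-voom called 2 and 0, against 7.81% and 2.89%. An edgeR test that asked whether the fold itself exceeded 1.5 called 0 members, with C2 and Fgb at an unadjusted p under 0.05.

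**Figure D1:**
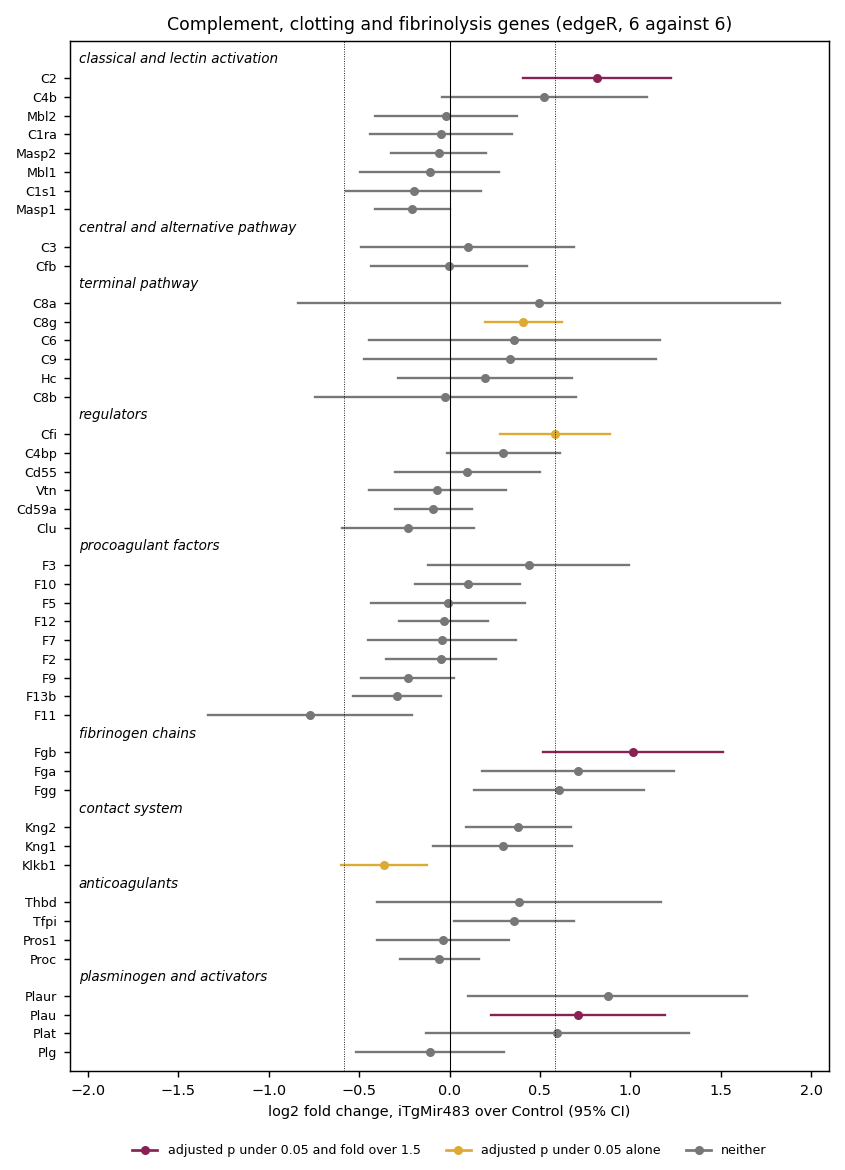
Log2 fold change of iTgMir483 over Control livers (x axis) with its 95% confidence interval for the 45 tested members, grouped by role, from edgeR on 6 against 6 livers; dotted lines mark a fold change of 1.5. Fgb, C2 and Plau lie past the dotted line with an adjusted p under 0.05, while Cfi, C8g and Klkb1 pass the adjusted p alone and most other intervals cross 0.

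Levels between genes were compared as CPM per kilobase of merged exon length. In Control livers C3 was the most abundant member at 2164 ± 306 CPM per kb (SD, n = 6). The fibrinogen chains followed, with Fgg at 1381 ± 265, Fga at 1227 ± 229 and Fgb at 1020 ± 162 CPM per kb, and vitronectin (Vtn) stood at 996 ± 80.7 CPM per kb. The ranges of these 4 genes overlapped between livers. Within each Control liver, though, Fgg stood above Fga and Fga above Fgb per kb of annotated exons. Read counts of Fga over Fgg were 1.27 to 1.29 there, on 3010 and 2093 exon bases. Those of Fgb over Fga were 1.01 to 1.08, on 3810 and 3010 exon bases. The longest annotated 3′ UTR had 2262 bases in Fgb, against 270 in Fga and 362 in Fgg. Which 3′ ends were in use was not measured, so the place of Fgb below Fga holds for the annotated lengths only. The place of Vtn beside Fgb was not resolved. With the length of the longest transcript in place of merged exons, Vtn and Plg ranked above Fgb. Plasminogen (Plg) at 758 ± 81.9, kininogen 1 (Kng1) at 553 ± 85.0 and prothrombin (F2) at 435 ± 28.4 CPM per kb came next. At the other end were the plasminogen activators and their receptor: Plau at 0.584 ± 0.125, Plaur at 0.275 ± 0.111 and Plat at 0.104 ± 0.0364 CPM per kb. Tissue factor (F3), thrombomodulin (Thbd) and tissue factor pathway inhibitor (Tfpi), which act at vessel walls, also lay low, between 1.05 and 1.90 CPM per kb. The low placing of C2 and Cfb rests on counts that may miss reads: 42.8% of the C2 exon bases and 79.5% of those of Cfb also lie in exons of Gm20547 on the same strand, a gene with 0 counts in all 12 libraries, and how reads in shared exons were assigned is not given in the sources used here.

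**Figure D2:**
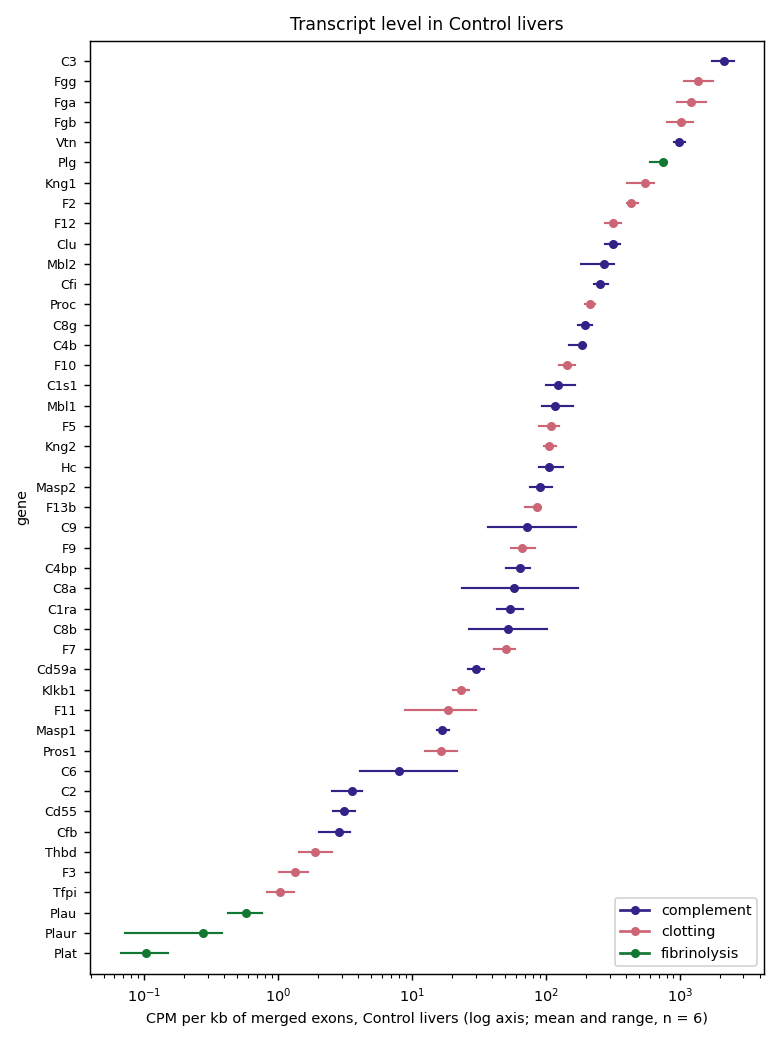
Level of the 45 tested members in Control livers, in CPM per kb of merged exons on a log axis, as the mean (point) and range (line) over 6 livers, coloured by class. C3, the fibrinogen chains and Vtn stand highest, at 996 CPM per kb or more, and Plau, Plaur and Plat lie below 1.

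Among the proteins that start the classical and lectin pathways, C2 rose and the other 7 did not pass the test. C2 (ENSMUSG00000024371, chr17:34862604-34898265, minus strand) measured 16.4, 12.3, 9.83, 15.2, 14.9 and 14.4 CPM in the Control livers and 25.0, 21.7, 17.6, 41.1, 19.7 and 21.2 CPM in the iTgMir483 livers. Every iTgMir483 liver lay above every Control liver, and the fourth iTgMir483 liver stood far above the rest. The log2 fold change was 0.81 (edgeR adjusted p = 0.00977, SE 0.19), and a two-sided exact permutation test over livers gave p = 0.0022, the smallest that 6 against 6 allows. The call held with each library left out in turn, at log2 fold changes of 0.60 to 0.89, and was lost by size, at 0.58, when both replicate 1 libraries and the fourth iTgMir483 liver were left out together. C4b, the main mouse C4 gene, had a log2 fold change of 0.52 (adjusted p = 0.18, SE 0.27), with 776 to 3162 CPM in iTgMir483 livers against 858 to 1145 CPM in Control livers. Without the fourth iTgMir483 liver it was 0.17. Reads of C4b could be shared with its near copy C4a, as those of C1ra and C1s1 could be with C1rb and C1s2, so their values are uncertain. The proteases C1ra, C1s1, Masp1 and Masp2 and the lectins Mbl1 and Mbl2 had log2 fold changes between -0.21 and -0.02, and none had an adjusted p under 0.15. Of the Masp2 exon bases, 54.9% also lie in exons of Tardbp on the opposite strand, counted 685 to 2780 times per library, and since the strand setting of the counts is not given in the sources used here, the level of Masp2 is uncertain too.

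C3 and factor B (Cfb), the proteins on which all routes and the alternative amplification loop run, did not pass the test, and their intervals were wide. C3 lay between 8968 and 13050 CPM in the Control livers, with a median of 11011, and between 5440 and 23407 CPM in the iTgMir483 livers, with a median of 10209. The spread in the iTgMir483 livers, with an SD of 6165 against 1572 CPM, came with the lowest value in the second and the highest in the fourth liver. The log2 fold change of C3 was 0.10 with a 95% interval of -0.49 to 0.69 (adjusted p = 0.83), and it changed sign, to -0.21, without the fourth iTgMir483 liver. Cfb had a log2 fold change of 0.00 (SE 0.20, 95% interval -0.43 to 0.43). Factor D (Cfd), the adipocyte-derived protease that activates factor B, did not pass the filter: it was counted 5, 0, 0, 0, 21 and 1 times in the Control livers and 0 times in all 6 iTgMir483 livers. The adipocyte hormone gene Adipoq was counted 6 and 10 times in the same Control replicates 1 and 5, 2 times in replicate 2 and 0 times in the other 9 livers, and its part in the Cfd counts was not tested.

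In the terminal pathway, C8g was higher in iTgMir483 livers and the genes of the other pore proteins did not pass the test. C8g, a lipocalin chain of C8 (chr2:25498651-25501719, minus strand), ranged from 261 to 332 CPM in Control livers and from 339 to 430 CPM in iTgMir483 livers, with medians of 284 and 395 CPM. The groups did not overlap, and no liver stood apart. The log2 fold change was 0.41 (adjusted p = 0.0121, SE 0.10), below the fold threshold, and it stayed between 0.37 and 0.45 with each library left out in turn. Several of the other 5 genes varied widely within each group. C8a measured 634 CPM in the first Control liver against 86.6 to 199 CPM in the other 5, and 906 CPM in the fourth iTgMir483 liver against 59.2 to 352 CPM in the other 5. C6 measured 77.0 CPM in the first Control liver against 14.7 to 25.4 CPM in the other 5, and 23.5 to 62.6 CPM in the iTgMir483 livers. C9 measured 432 CPM in the first Control liver against 94.2 to 171 CPM in the other 5, and 144 to 450 CPM in the iTgMir483 livers. All 6 terminal genes had their highest Control value in the first Control liver. With that library left out, C6 had a log2 fold change of 0.95 and was called higher (adjusted p = 0.0096), whereas with all libraries it was 0.36 (adjusted p = 0.54, SE 0.38). Hc, which encodes C5, had a log2 fold change of 0.20 (adjusted p = 0.58, SE 0.22), and C8b, which lies beside C8a on chromosome 4, one of -0.02 (adjusted p = 0.97, SE 0.34).

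Of the 6 regulators, Cfi had the largest change. Cfi encodes factor I, the protease that inactivates C3b and C4b, and lies at chr3:129835884-129875332 on the plus strand. It measured 642, 507, 651, 537, 569 and 509 CPM in Control livers and 701, 654, 860, 1167, 821 and 910 CPM in iTgMir483 livers. The groups did not overlap, although the second iTgMir483 liver lay just above the highest Control. The log2 fold change of 0.58 (adjusted p = 0.0125, SE 0.14; two-sided exact permutation p = 0.0022) fell just under the fold threshold, and it passed it with upper quartile scaling, library totals or a minimum of 10 counts in every library, and in 5 of 12 fits that left out a library. C4bp, the C4b-binding protein, had a log2 fold change of 0.30 (adjusted p = 0.17, SE 0.15). Cd55, Cd59a, Clu and Vtn lay between -0.23 and 0.10, with adjusted p of 0.37 or more.

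**Figure D3:**
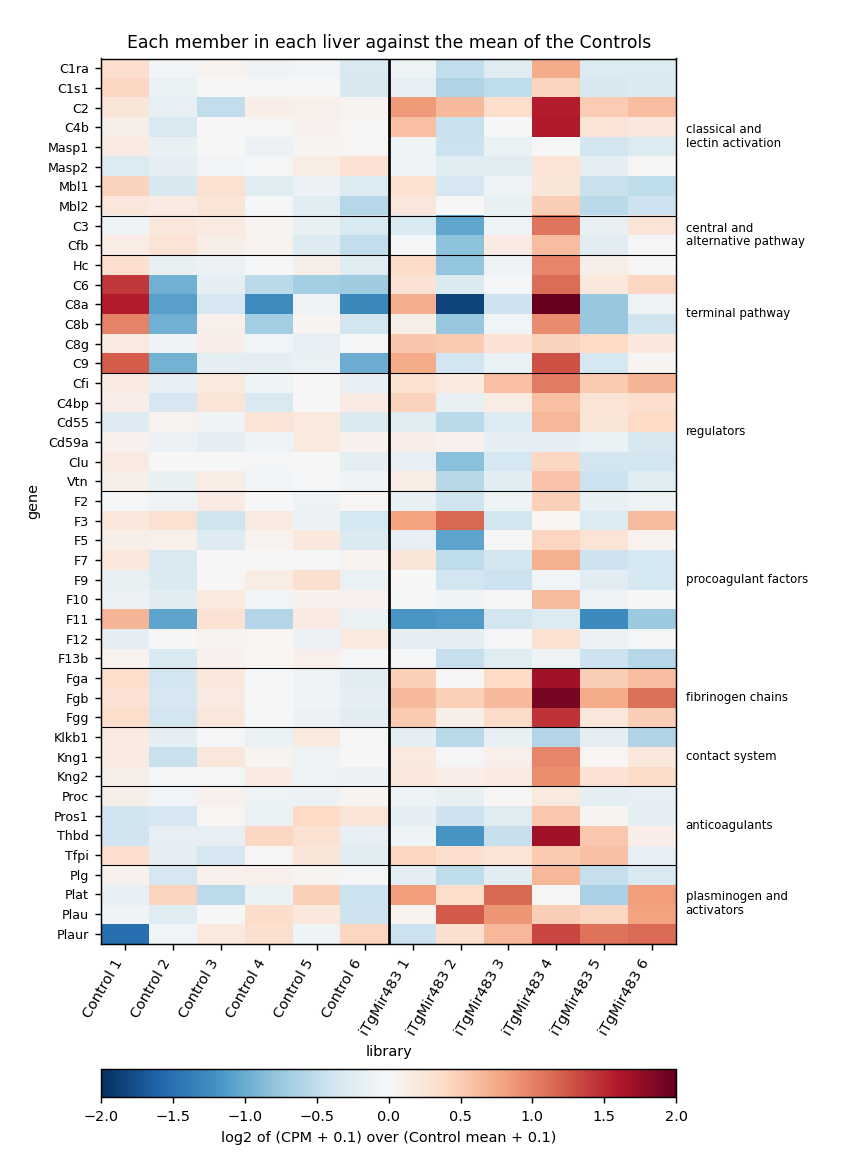
Level of each of the 45 tested members (rows, by role) in each of the 12 livers (columns), as the log2 ratio to the mean of the Control livers after adding 0.1 CPM. The fourth iTgMir483 liver is red in most rows, the second is blue in many, and the first Control liver is red for C6, C8a, C8b and C9.

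Of the fibrinogen genes, Fgb rose, while Fga and Fgg had positive log2 fold changes that missed the threshold. They lie together on chromosome 3, with Fgg and Fga on the plus strand and Fgb on the minus strand, and their products join into a hexamer with a pair of each chain. Fgb (ENSMUSG00000033831, chr3:83040141-83049863) measured 4766, 3088, 4393, 3928, 3699 and 3444 CPM in Control livers and 6093, 5428, 6108, 14495, 6532 and 8371 CPM in iTgMir483 livers. All 6 iTgMir483 livers exceeded the highest Control liver, and replicate 4 stood well above the other 5. Its log2 fold change was 1.01 (adjusted p = 0.00878, SE 0.23; two-sided exact permutation p = 0.0022), and it was called in all 12 fits that left out a library, at 0.74 without the fourth iTgMir483 liver and 1.10 at most.

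Fga measured 2872 to 4710 CPM in Control livers, with a median of 3553, and 3690 to 11780 CPM in iTgMir483 livers, with a median of 5168. In 5 of 6 iTgMir483 livers it lay above the highest Control liver. The log2 fold change of Fga was 0.71 (adjusted p = 0.0591, SE 0.25), which missed the threshold. Fgg measured 2247 to 3701 CPM in Control livers, with a median of 2764, and 3129 to 7874 CPM in iTgMir483 livers, with a median of 3917. Its log2 fold change was 0.61 (adjusted p = 0.0689, SE 0.22), with 4 of 6 iTgMir483 livers above the highest Control. Both passed with DESeq2, with library totals, without the first Control liver and without the second iTgMir483 liver, and Fga also with upper quartile scaling. Without the fourth iTgMir483 liver they were smaller, at 0.41 for Fga and 0.36 for Fgg.

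**Figure D4:**
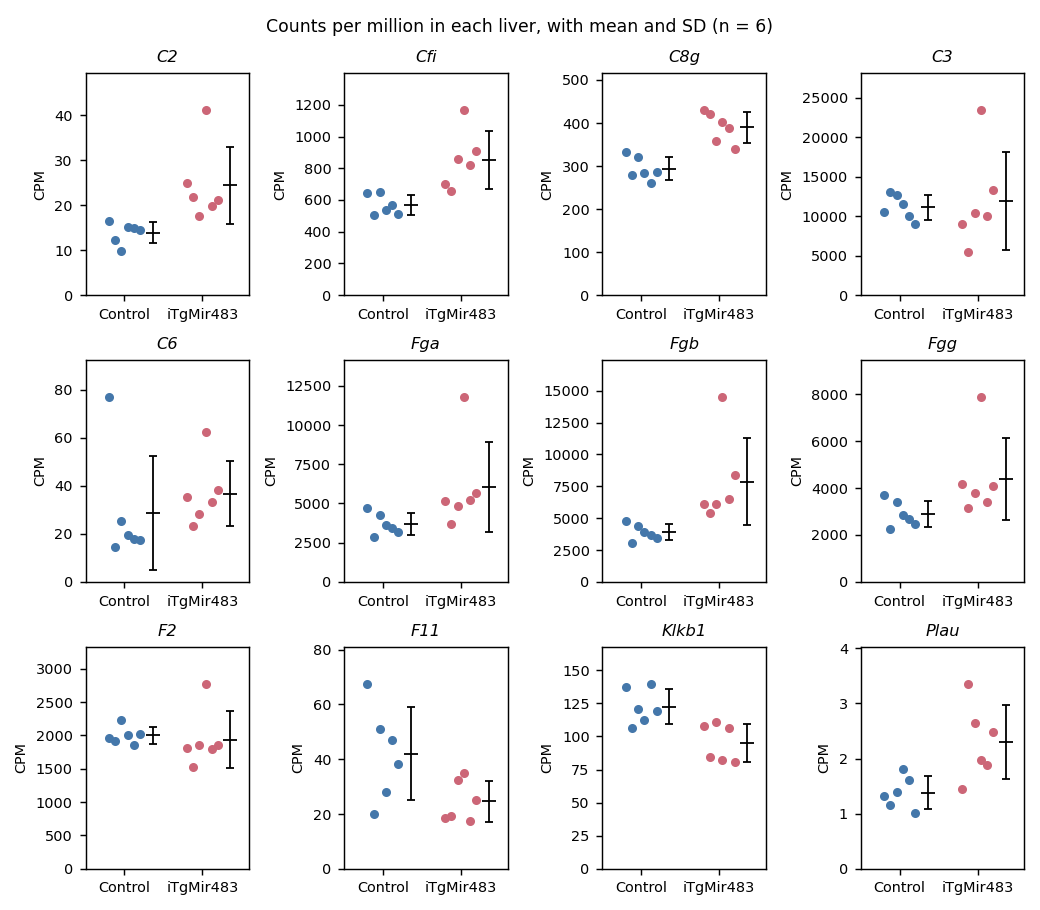
CPM in each of the 6 Control (blue) and 6 iTgMir483 livers (red) for 12 members, in order of replicate number, with the mean and SD as a bar beside the points; each axis starts at 0. C2, Cfi, C8g and Fgb do not overlap between the groups, C3 and F2 do, and the first Control liver is the high point of C6.

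The proportions of the chains were compared within each liver as ratios of read counts, which do not depend on the scaling between libraries; these ratios were chosen after the chain levels were seen. Fgb over Fga was 1.06 ± 0.0301 (SD, n = 6) in Control livers, with a range of 1.01 to 1.08, and 1.31 ± 0.129 in iTgMir483 livers, with a range of 1.19 to 1.48. Fgb over Fgg was 1.35 ± 0.0463 in Control livers, with a range of 1.29 to 1.39, and 1.77 ± 0.214 in iTgMir483 livers, with a range of 1.46 to 2.06. In both ratios every iTgMir483 liver lay above every Control liver (two-sided exact permutation p = 0.0022 each, 0.0032 after Benjamini-Hochberg adjustment over 3 ratios). Fga over Fgg was 1.28 ± 0.0093 against 1.35 ± 0.144, and the groups overlapped (exact permutation p = 0.27). The 3 ratios were tightly held among the Control livers and more spread among the iTgMir483 livers. The fourth iTgMir483 liver, highest in the level of each chain, was not the highest in any of these ratios, and with each library left out in turn the difference in mean log2 ratio ranged from 0.27 to 0.34 for Fgb over Fga and from 0.34 to 0.44 for Fgb over Fgg.

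**Figure D5:**
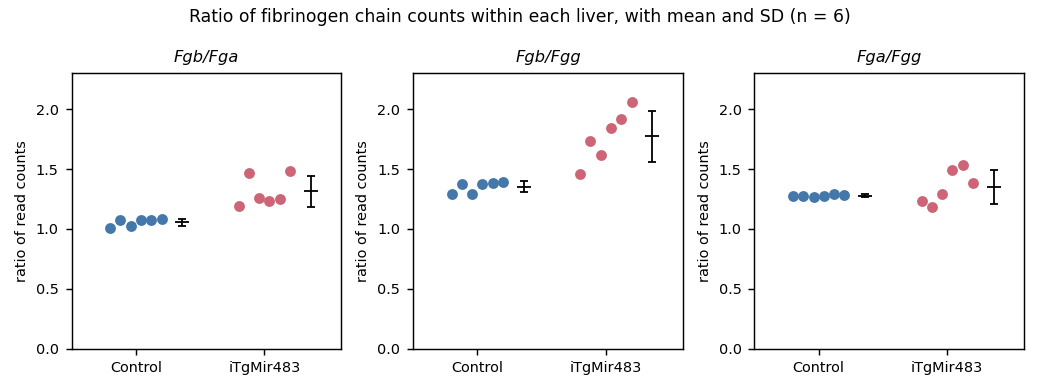
Ratio of read counts of the fibrinogen chains within each of the 6 Control (blue) and 6 iTgMir483 livers (red), with mean and SD beside the points. Fgb over Fga and Fgb over Fgg are higher in every iTgMir483 liver than in any Control liver, with Control means of 1.06 and 1.35, while Fga over Fgg overlaps.

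The promoters of the fibrinogen genes are shown because these neighbours had log2 fold changes of the same sign and unlike size. Each run covers 250 bases before to 50 after the RefSeq start, on the strand of the gene (GRCm38.p6). Capitals mark matches, on either strand, to the letters CTGGGA (core of the interleukin-6 response element), TTCNNNGAA (STAT), TTNNGNAAT (C/EBP) and GTTAAT (HNF1 core).
Fgg, chr3:83007474-83007773, plus strand: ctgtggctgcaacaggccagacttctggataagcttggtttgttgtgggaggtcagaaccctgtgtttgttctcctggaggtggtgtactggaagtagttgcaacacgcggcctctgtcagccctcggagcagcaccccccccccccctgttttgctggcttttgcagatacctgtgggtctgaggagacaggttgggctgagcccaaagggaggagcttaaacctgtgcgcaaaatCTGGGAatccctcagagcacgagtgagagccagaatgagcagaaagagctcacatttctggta
Fga, chr3:83025903-83026202, plus strand: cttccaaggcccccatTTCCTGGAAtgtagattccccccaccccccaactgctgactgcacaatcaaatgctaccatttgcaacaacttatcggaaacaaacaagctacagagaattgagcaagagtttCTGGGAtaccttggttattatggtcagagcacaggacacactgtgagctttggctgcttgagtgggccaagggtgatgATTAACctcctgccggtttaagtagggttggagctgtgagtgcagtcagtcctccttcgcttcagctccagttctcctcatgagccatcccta
Fgb, chr3:83049814-83050113, minus strand: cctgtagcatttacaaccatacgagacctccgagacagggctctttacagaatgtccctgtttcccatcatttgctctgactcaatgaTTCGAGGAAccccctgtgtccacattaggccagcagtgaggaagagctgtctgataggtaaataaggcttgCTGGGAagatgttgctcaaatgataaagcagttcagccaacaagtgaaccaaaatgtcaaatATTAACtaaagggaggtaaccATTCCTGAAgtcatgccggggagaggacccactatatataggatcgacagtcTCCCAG
All 3 promoters held CTGGGA, those of Fga and Fgb held STAT and HNF1 letters, and of these 3 genes that of Fgb alone held the C/EBP letters. Promoters were found for 34 of the 46 members, 37 promoters in all; C2, C4b, Cfb, Cfi, Clu, Kng1, Masp1, Plat, Plau, Plg, Proc and Thbd had none in the table. Of the 37, 20 (54.1%) held CTGGGA against 31.8% of all 32851 promoters, and 8 (21.6%) held the STAT letters against 8.30%. The C/EBP letters were in 11 (29.7%) against 11.5% of all, and the HNF1 letters also in 11 (29.7%) against 7.10%. Such matches were also present in promoters of members that did not pass the test, among them F2, Vtn and C3, and they are not measured sites.

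None of the 9 procoagulant factors passed the test. F2, prothrombin, lay between 1855 and 2232 CPM in Control livers and between 1522 and 2774 CPM in iTgMir483 livers, with medians of 1987 and 1834 CPM and a log2 fold change of -0.05 (95% interval -0.35 to 0.26). F5, F7, F10 and F12 had log2 fold changes between -0.04 and 0.10, F9 and F13b stood at -0.23 and -0.29, and F3, the tissue factor gene, at 0.44, and none of these passed the test. F11, which encodes factor XI, measured 67.5, 20.1, 51.2, 28.0, 47.1 and 38.3 CPM in Control livers and 18.7, 19.2, 32.4, 35.0, 17.4 and 25.0 CPM in iTgMir483 livers. The groups overlapped, with 3 of 6 iTgMir483 livers below the lowest Control liver. Its log2 fold change was -0.77 (adjusted p = 0.0555, SE 0.26; exact permutation p = 0.0498), the lowest of the 45 members. It passed as lower with DESeq2, with no filter on low counts, and without Control replicate 2 or 4 or the fourth iTgMir483 liver.

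In the contact system, Klkb1 and the kininogens had opposite signs. Klkb1, the plasma kallikrein gene that neighbours F11 on chromosome 8, ranged from 107 to 140 CPM in Control livers, with a median of 120, and from 80.6 to 111 CPM in iTgMir483 livers, with a median of 95.4. Its log2 fold change was -0.36 (adjusted p = 0.0351, SE 0.11), below the fold threshold, with 4 of 6 iTgMir483 livers under the lowest Control. The adjusted p rose above 0.05, to at most 0.0764, without Control replicate 1, 3, 5 or 6 or iTgMir483 replicate 2, 4 or 6. It was 0.052 with no filter on low counts, and with library totals as the scaling it was 0.24 at a log2 fold change of -0.21. Of its exon bases, 43.2% also lie in Gm45753 on the same strand, which had at most 1 count in any library. Kng1 and Kng2, which encode kininogens and share much of their sequence, had log2 fold changes of 0.29 (adjusted p = 0.28, SE 0.18) and 0.38 (adjusted p = 0.0662, SE 0.14).

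The anticoagulants did not pass the test. Proc and Pros1, the genes of protein C and its cofactor protein S, had log2 fold changes of -0.06 (95% interval -0.27 to 0.16) and -0.04 (95% interval -0.40 to 0.33). Tfpi, the inhibitor of tissue factor, had 0.36 (adjusted p = 0.12, SE 0.16), and Thbd, the thrombin receptor thrombomodulin, 0.38 (adjusted p = 0.50, SE 0.37). Thbd changed sign, to -0.11, without the fourth iTgMir483 liver, where it stood at 22.9 CPM against 3.07 to 10.3 CPM in the other 5.

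In fibrinolysis, plasminogen and its activators differed in level and in pattern. Plg, the abundant precursor of plasmin, lay between 2227 and 3005 CPM in Control livers and between 1972 and 4461 CPM in iTgMir483 livers, with a log2 fold change of -0.11 (95% interval -0.52 to 0.30). Plau measured 1.32, 1.15, 1.39, 1.81, 1.61 and 1.01 CPM in Control livers and 1.46, 3.35, 2.64, 1.98, 1.88 and 2.48 CPM in iTgMir483 livers. In 5 of 6 iTgMir483 livers it exceeded the highest Control. These values rest on 11 to 53 reads per library. The log2 fold change of 0.71 (SE 0.23) had an adjusted p of 0.0404, and the call held in only 4 of 12 fits that left out a library, with adjusted p up to 0.0848. It was lost without Control replicate 1, 2, 3, 5 or 6 or iTgMir483 replicate 2, 3 or 6, as well as with limma-voom, no filter on low counts or the replicate block. Plaur, the urokinase receptor, and Plat, the tissue-type activator, had log2 fold changes of 0.87 (adjusted p = 0.11, SE 0.36) and 0.59 (adjusted p = 0.24, SE 0.34), with 3 to 27 and 5 to 26 reads per library.

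A few livers set much of the spread in these genes. The fourth iTgMir483 liver held the highest value of its group in 35 of 45 members (77.8%), against 22.4% of all tested genes, and the highest of all 12 livers in 30 members (66.7%), against 16.2%. The second iTgMir483 liver was the lowest of its group in 28 members (62.2%, against 21.1% of all), and the first Control liver the highest of its group in 20 (44.4%, against 25.1%). In 38 members (84.4%) the SD was larger among iTgMir483 than among Control livers, as it was for 63.1% of all tested genes. The fourth iTgMir483 liver also had the highest summed level of the 9 Kupffer cell and macrophage markers, at 1416 CPM against 469 to 812 CPM in the other iTgMir483 livers and 298 to 443 CPM in the Control livers. Its summed level of neutrophil markers was also the highest, at 26.8 CPM, but close to the 24.2 CPM of the first iTgMir483 liver. Csf3r alone made 15.5 CPM of it and was the only neutrophil marker highest in the fourth liver. S100a8, S100a9, Mpo and Elane were highest in the first iTgMir483 liver, Ly6g in the fifth and Retnlg in the sixth. The fourth iTgMir483 liver had the lowest Mir483 count of its group, at 318. Its summed level of hepatocyte markers was the lowest, at 56058 CPM, of which Alb alone made 35996 CPM. The hepatocyte markers did not move together: Alb and Ttr were lowest in this liver. Hnf4a, Cps1 and Asgr1 had their highest iTgMir483 values there, at 1008, 4339 and 705 CPM, and Apoa1 and Serpina1a were at neither end. The part of these values in the levels of the members was not tested. Without that liver, Fgb, C2 and Plau were called higher and F11 was called lower. Without both replicate 1 libraries, 7 members were called higher (C2, C6, Cfi, Fga, Fgb, Plau and Plaur), and without these and the fourth iTgMir483 liver 3 were (C6, Fgb and Plau). Over all genes, 1470 were called with all libraries and 1190 to 1653 with each library left out in turn. The totals over all genes without both replicate 1 libraries are not given here. The member counts of those fits can therefore not be set beside a share of all genes.

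The other genes of these pathways, which are mainly receptors and proteins of other cells, gave context. Of 29 other complement genes, 26 were tested, 7 were called higher and 1 lower, against 8.41% and 2.73% of all tested genes. The higher ones were the C1q chains C1qa, C1qb and C1qc, at log2 fold changes of 0.80 to 1.10, properdin (Cfp), at 39.7 to 128 CPM in iTgMir483 against 30.5 to 37.2 CPM in Control livers, and the integrin subunits Itgam, Itgax and Itgb2 of the complement receptors, at log2 fold changes between 0.90 and 2.48. The lower one was C7, the pore protein that joins C6, at -2.21, from 0.731 to 2.68 CPM in Control livers to 0.0627 to 0.586 CPM in iTgMir483 livers. C7 was counted only 8 to 40 times in the Control livers and 1 to 8 times in the iTgMir483 livers. The genes of C1q, properdin and these integrins are known from macrophages and other leukocytes, and 8 of the 9 Kupffer cell and macrophage markers and all 3 tested neutrophil markers were called higher. The part of these cells in the levels was not tested.

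Of 19 other clotting genes, 13 were tested, 2 were called higher and 0 lower by edgeR, against 8.41% and 2.73% of all tested genes. At an unadjusted p under 0.05 in edgeR, 2 were lower, against 14.8% of all tested genes. DESeq2 and limma-voom called 0 lower, against 3.4% and 2.89% of all genes they tested. The higher ones were the protein C receptor gene Procr, at a log2 fold change of 1.06, and the thrombin receptor gene F2r at 0.67. Of 9 other fibrinolysis genes, 8 were tested, 3 were called higher and 1 lower, against 8.41% and 2.73% of all tested genes. Anxa2, a plasminogen-binding surface protein, had a log2 fold change of 2.04 and the plasminogen receptor gene Plgrkt had 0.74. Serpine2, a protease inhibitor, was called lower at -1.40, with adjusted p = 0.042, and this call was lost without Control replicate 1, 4 or 5, or without any iTgMir483 replicate but the third.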

How the data were processed

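Poly(A) RNA from 12 livers (6 Control and 6 iTgMir483) was sequenced from stranded paired-end libraries. Per the labels and the study's methods, the authors aligned the reads with STAR to GRCm38 and deposited raw counts per gene, with no normalization; which strand column was kept is not given in the sources used here. Counts were scaled by TMM, filtered with filterByExpr and tested with edgeR 4.0.16 in R 4.3.3 (quasi-likelihood F-test, no covariates), with p-values adjusted over all 13205 tested genes and calls at an adjusted p under 0.05 and a fold over 1.5, as the study's methods set them. Single members were also tested by a two-sided exact permutation test of mean log2 (CPM + 0.1) over livers. CPM is the count over the TMM-scaled library size, times 1e6. Exon lengths and positions came from GENCODE M21, sequences from RefSeq tables, and figures from matplotlib 3.10.9. The scripts were tested on simulated data before use. Depth was 12244123 to 30431286 counts per library, and errors are SDs or fit SEs over livers.

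The members and the gene lists were chosen with earlier results of these data known. The named genes were the called members, those passing the adjusted p alone, the fibrinogen chains, C3, F2 and Plg, members with a liver far from the rest of its group, called genes of the pathway lists and the marker genes; the other members are given by ranges, intervals and counts. F11, Kng2, Cfd and others were described after their values were seen. The alternatives were RLE, upper quartile or no scaling factors, other filters, DESeq2 1.42.0, limma-voom 3.58.1, other fold rules, a replicate block and fits without given libraries. The study's methods give 6 female mice per group. The descriptions give each library a number of its own, without stating that it names an animal. The p-values measure the spread between these livers, and all libraries carry the same pool number. The values of 1 called gene of the fibrinolysis list are not reported here.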

Additional observations from a re-analysis of the deposited data

Results flagged for a closer look

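In a group of 6 livers, a value was marked when its gap to the nearest other liver, as a share of the range of the group, was past Dixon's critical value at 95%. This was run on CPM for 45 members in each group, 90 groups in all, of which chance marks about 4.5; 23 were marked. These 90 groups share the same 12 livers and are not independent.

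The fourth iTgMir483 liver was the high value in 16 of the 23. The gap was 0.775 of the range for C1ra, 0.671 for C1s1, 0.688 for C2, 0.65 for C4b, 0.655 for C8a and 0.628 for C8b among complement genes. Among clotting genes it was 0.729 for F2, 0.888 for F10, 0.702 for F12, 0.759 for Fga, 0.675 for Fgb, 0.781 for Fgg, 0.818 for Kng1, 0.735 for Kng2 and 0.636 for Thbd. It was 0.793 for Plg, the plasmin precursor.

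The first Control liver was the high value in 4 groups, all of complement genes: C1s1 with a gap of 0.635, C6 with 0.828, C8a with 0.794 and C9 with 0.773. The second Control liver was the low value in 3 groups, with gaps of 0.724 for C4b, 0.648 for F13b and 0.654 for Plg.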

How the results depend on the processing

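Fgb was called higher and C2 higher under RLE, upper quartile or no scaling factors, both count filters, DESeq2, limma-voom, the replicate block and each of 12 fits without a library; the exceptions were a test against a fold change of 1.5 for both and, for C2, the fit without both replicate 1 libraries and iTgMir483 replicate 4. Against 3 members called higher, there were 5 with upper quartile factors, 7 with library totals, 5 with DESeq2, 0 with the test against a fold change of 1.5, 5 with the adjusted p alone, 7 without both replicate 1 libraries (6 without Control replicate 1 alone), and 2 to 6 with each library left out. Against 0 called lower, there was 1 with no filter, with DESeq2 and with the adjusted p alone, and 0 to 1 with each library left out; F11 was that member in each but the adjusted p alone, where it was Klkb1. Over all genes, 1470 were called, against 226 with the test against a fold change of 1.5, 2457 with the adjusted p alone, and 1190 to 1653 with each library left out. The total without both replicate 1 libraries is not given here. Library totals moved the median log2 fold change of all genes from 0.01 to 0.15 and gave 1650 higher and 195 lower calls, against 1110 and 360; among the 25 members followed through the alternatives, it turned the sign of 5, none of them called: C1ra at 0.076, C8b at 0.091, F2 at 0.090, F12 at 0.11 and Plg at 0.021. C3 turned to -0.023 with limma-voom and -0.027 with the block. Without both replicate 1 libraries C1ra was 0.040 and C8b 0.26, and with iTgMir483 replicate 4 also left out C3 was -0.20, F10 -0.072, F12 -0.13 and Thbd -0.19. With each library left out in turn, 8 of these 25 members, none of them called, changed sign: C1ra from -0.27 to 0.027, C8b from -0.33 to 0.29, F2 from -0.18 to 0.015, F12 from -0.11 to 0.0065, C3 from -0.21 to 0.25, C8a from -0.25 to 1.22, F10 from -0.04 to 0.14 and Thbd from -0.11 to 0.56. The causes were not tested beyond the libraries left out. Of 600 values of named members under alternatives, 531 kept direction and side of the threshold, 30 came to pass it, 15 no longer passed it and 24 changed sign. The labels number the livers 1 to 6 in each group. The deviations of same-numbered livers correlated at 0.44 for replicate 1 and at 0.03 to 0.17 for the others, under 0.1 in 4 of 6 pairs. Correlations of differently numbered livers are not given, so these values do not settle whether the numbers mark pairs. The numbers were not taken as pairs in the main fit. The replicate block gave 1530 called genes, with C2, Fgb and Plaur as the 3 members called higher and 0 lower. Plau, Plat and Plaur rest on the fewest reads of the tested members.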
